A study of Mus musculus with 167 samples.

Results

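Livers of 6-month-old Q92 mice were compared with livers of 6-month-old Q20 mice, 16 of the 167 liver small RNA libraries of an Htt allelic series, chosen by genotype and age as titled in the labels. Each group held 8 animals, 4 females and 4 males, on C57BL/6. All were heterozygous (Het) knock-in mice, with 1 wild-type mouse Htt allele and 1 allele into which human HTT exon 1 had been placed, carrying about 92 CAG repeats in the Q92 line and about 20 in the Q20 line. Both groups therefore carried an engineered allele, and the Q20 line, whose repeat lies in the range of unaffected people, served as the control. Per the labels Q92 mice were housed with Het (Q92) mice and Q20 mice with Het (Q20) mice, and per the study's methods wild-type animals shared such cages, so cage and line cannot be told apart, nor can the repeat length and any other difference between the lines. Wild-type livers of this age were left out because their libraries were numbered in another scheme.

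MicroRNAs are short RNAs cut from a hairpin precursor. Bases 2 to 8 of the mature strand, the seed, pair with target messenger RNAs and lower their translation or stability, so that microRNAs with the same seed can act on overlapping sets of targets. In adult liver Mir122 and Mir192 are typical of hepatocytes, and the let-7 family is abundant in most differentiated tissues. Huntingtin is expressed in liver as well as in brain.

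The measure was the number of sequencing reads assigned to each microRNA precursor, and it does not separate the 2 arms of a hairpin. Levels are given as CPM, counts per 1000000 summed counts of a library. Of 1626 precursor transcripts, 260 had at least 10 counts in at least 8 of the 16 livers and were tested with the edgeR quasi-likelihood test, fitted with sex and library index type and adjusted over all 260 (Benjamini-Hochberg). "Called" below means an adjusted p under 0.05, and changes are log2 values with their standard error (SE), positive where Q92 was higher. Index type set apart a single library, Q20 F4, which that term fits exactly, so this library adds nothing to the Q92 estimates.

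At 6 months 45 of the 260 precursors were called, 17.3% of those tested. Of these 22 were higher in Q92 (8.46%) and 23 were lower (8.85%). The changes were small: the median of the precursors called higher was 1.26-fold, and only Gm24111 of them exceeded 2-fold. Among those called lower the median was 1.41-fold, and Mir874 and Gm26117 exceeded 2-fold. Higher precursors included 8 of the 10 tested members of the let-7 family, Mir103-1 and Mir107, which share a seed, and Mir22, one of the most abundant microRNAs of these livers. Lower precursors included Mir125a, Mir125b-2 and Mir351, which share a seed, and Mir27a and Mir27b, which share another. In 9 of the 260 precursors (3.46%) the CPM ranges of the groups did not overlap: Gm24111 was higher throughout (0.385%), and 8 were lower throughout (3.08%), namely Mir874, Mir351, Mir125a, Mir27a, Mir328, Mir99b, Mir139 and ENSMUST00000102093, a transcript with no symbol in the annotation used.

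**Figure D1:**
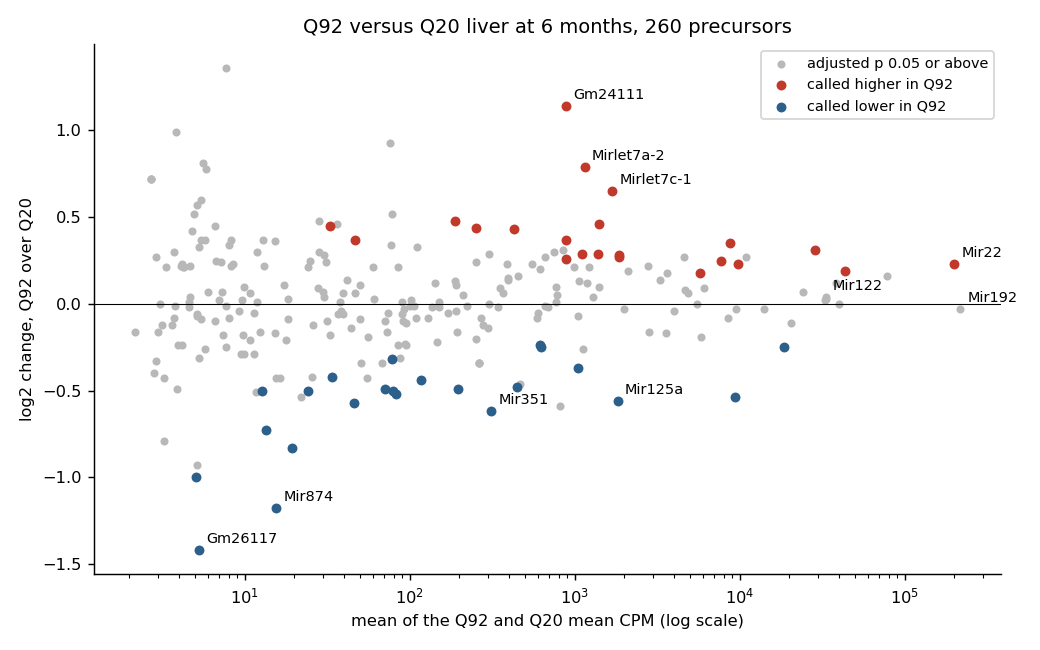
Log2 change of each of the 260 tested precursors, Q92 over Q20 at 6 months, against the mean of the 2 group means in CPM (log scale). Red points mark the 22 called higher, blue points the 23 called lower and grey points the rest; Gm24111 lies at 1.14 and Mir874 at -1.18, and the abundant Mir192 lies at -0.03.

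The mature strands behind the main groups are shown here because shared seeds link several of the called precursors. They are from RefSeq (GRCm38.p6), 5′ to 3′, with the seed in capitals. Of the 45 called precursors 34 matched a RefSeq hairpin, as did 199 of the 260 tested. Called higher were precursors of the following let-7 strands, which share the seed GAGGUAG, and let-7f-5p is also made from Mirlet7f-2.
let-7a-5p: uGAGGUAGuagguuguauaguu
let-7b-5p: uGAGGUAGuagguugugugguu
let-7c-5p: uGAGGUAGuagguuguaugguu
let-7d-5p: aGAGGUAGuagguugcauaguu
let-7f-5p: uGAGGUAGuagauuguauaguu
let-7g-5p: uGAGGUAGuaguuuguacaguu
miR-98-5p: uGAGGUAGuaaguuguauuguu

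Precursors of 2 further seed pairs were also called higher, GCAGCAU for Mir103-1 and Mir107 and GUAAACA for Mir30a and Mir30c-2.
miR-103-3p: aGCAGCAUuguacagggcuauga
miR-107-3p: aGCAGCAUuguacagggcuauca
miR-30a-5p: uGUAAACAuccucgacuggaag
miR-30c-5p: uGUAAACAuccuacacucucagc

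Among the precursors called lower, Mir351, Mir125a and Mir125b-2 give strands with the seed CCCUGAG, and Mir27a and Mir27b give strands with the seed UCACAGU.
miR-351-5p: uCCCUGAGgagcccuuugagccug
miR-125a-5p: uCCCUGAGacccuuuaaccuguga
miR-125b-5p: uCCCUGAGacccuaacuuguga
miR-27a-3p: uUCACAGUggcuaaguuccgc
miR-27b-3p: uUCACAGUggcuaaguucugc

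Before the members are described, the libraries need a short account. Summed counts were 2.75 to 4.12 M (1 M is 1000000 counts) per library in Q92 and 3.42 to 5.50 M in Q20, with means of 3.39 M ± 0.466 (SD, n = 8) and 4.38 M ± 0.626 (SD, n = 8). The difference of -0.99 M passed an exact two-sided permutation test (p = 0.00311). The column names place 5 Q92 libraries in lane L8 and 3 in lane L7, while the Q20 libraries were 2 in L7, 2 in L8 and 4 elsewhere. Some lane and index names recur together in libraries of other groups, so a shared lane name need not mean 1 physical lane. All 4 Q92 females were in L8, where no Q20 female was. Hepatocyte markers were abundant in all 16 livers, with Mir192 at 184805 to 242681 CPM and Mir122 at 28101 to 37569 CPM. Mir592 was chosen after its values were seen. It lay at 37.4 to 54.2 CPM in the livers labelled male and 1.99 to 7.03 CPM in those labelled female. Because it was picked on these same libraries, this is no independent check of the sex labels.

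In the 12 livers of lanes L7 and L8 alone, 8 Q92 and 4 Q20, only Gm24111 (higher) and Mir874 (lower) were called of 260 (0.769%), and 47 precursors had an unadjusted p under 0.05. With lane as a term over all 16 livers 5 were called: these 2 with Mir339, Mir351 and Mir125a. Lanes other than L7 and L8 held Q20 libraries alone. In that fit too, the contrast of Q92 with Q20 therefore came from L7 and L8. The fit to the shared lanes rests on 4 Q20 livers. Of the 45 precursors, 37 had an unadjusted p under 0.05 in it. The median log2 change of the 22 precursors called higher was 0.33 in the 16 livers and 0.29 in the shared lanes, and that of the 23 called lower was -0.50 and -0.48. These 12 livers are among the 16 that gave the calls, so neither the count nor the medians are an independent check.

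Gm24111 had the largest change among the precursors called higher. Its model lies at chr13:48537825-48537921 (mm10), on the plus strand, opposite an exon of 6720427I07Rik and antisense to Mirlet7f-1, a precursor that the table does not list. Whether the counting used strand is not given in the sources used here, so reads of the 2 strands cannot be told apart, and its counts were fractional in all 16 livers. In the Q92 females F1 to F4 it was at 1424, 1294, 1310 and 1393 CPM, and in the Q92 males M1 to M4 at 1408, 981.3, 930.9 and 763.0 CPM. Q20 females had 634.7, 588.6, 583.9 and 694.1 CPM, and Q20 males 454.5, 525.6, 485.8 and 652.8 CPM. Every Q92 liver was above every Q20 liver, and the 3 lowest Q92 livers were those of lane L7. The change was 2.21-fold (log2 1.14 ± 0.13 SE, adjusted p = 3.91e-05).

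Mir874, in an intron of Klhl3 at chr13:58023125-58023200 on the minus strand, had the clearest change downward. Its RefSeq hairpin is shown because the result turns on it; its mature strands are not in the table used.
Mir874 hairpin: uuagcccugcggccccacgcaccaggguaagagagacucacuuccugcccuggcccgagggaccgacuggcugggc

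Among the Q92 livers the females F1 to F4 had 9.09, 8.95, 7.03 and 9.28 CPM and the males M1 to M4 9.53, 9.90, 11.2 and 8.70 CPM. The Q20 females had 22.4, 25.7, 21.6 and 20.4 CPM and the Q20 males 19.3, 22.3, 27.4 and 16.9 CPM. The groups did not overlap, and Q92 was 2.27-fold lower (log2 -1.18 ± 0.13 SE, adjusted p = 3.91e-05). These levels rest on 21 to 46 counts per Q92 library and 71 to 136 per Q20 library. In lanes L7 and L8 alone the change was -1.02 ± 0.16 SE (adjusted p = 0.0101).

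**Figure D2:**
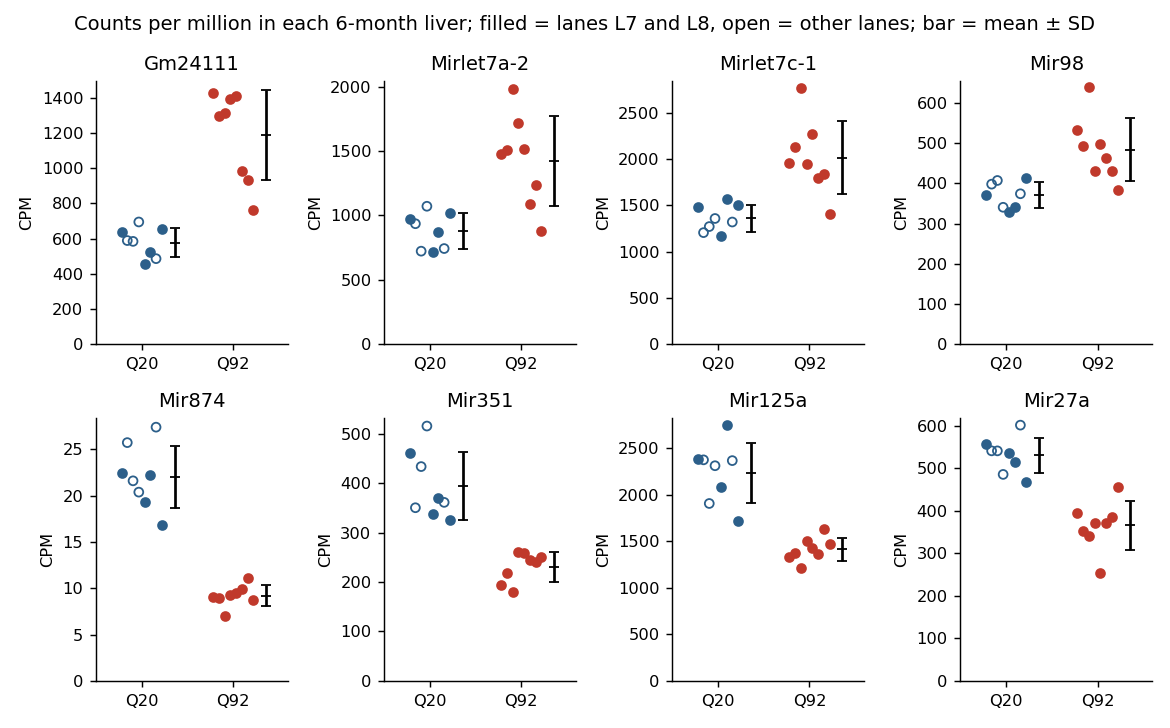
CPM of 8 called precursors in each liver, by genotype; filled points are lanes L7 and L8, open points other lanes, and the bar is the mean ± SD of 8 livers. For Gm24111, Mir874, Mir351, Mir125a and Mir27a the groups do not overlap, while for Mirlet7a-2, Mirlet7c-1 and Mir98 the lowest Q92 livers lie among the Q20 livers.

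The let-7 family, known for holding back growth-related genes in differentiated cells, had 8 of 10 tested precursors called higher and none lower, against 8.46% of all tested precursors called higher. The median log2 change of its 10 tested members was 0.30, against 0.01 over all 260. Mirlet7c-2 (0.27 ± 0.10 SE) and Mirlet7i (0.19 ± 0.07 SE) did not pass, with adjusted p = 0.0645 and 0.0668 in the same edgeR fit. Summed over the family, the level was 51430 to 80449 CPM in Q92 (median 64128) and 49752 to 58174 CPM in Q20 (median 53657). The Q92 median lay above the highest Q20 liver, and the ranges overlapped.

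Mirlet7a-2 (chr9:41536716-41536811, in an intron of 3110039I08Rik) had the largest change of the family, with a lowest, median and highest level of 882.8, 1493 and 1981 CPM in Q92 and 714.2, 903.9 and 1072 CPM in Q20. It rose 1.73-fold (log2 0.79 ± 0.15 SE, adjusted p = 0.00293). Mirlet7c-1 ran from 1410 through a median of 1951 to 2760 CPM in Q92 and from 1162 through 1338 to 1570 CPM in Q20, a rise of 1.56-fold (log2 0.65 ± 0.13 SE, adjusted p = 0.00293). Both had some Q92 livers within the Q20 range.

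Mirlet7f-2, the most abundant member, had 25467, 30509 and 38303 CPM (lowest, median, highest) in Q92 and 24533, 26431 and 28465 CPM in Q20, a rise of 1.24-fold (adjusted p = 0.0191). Mir98, its neighbour in an intron of Huwe1, had 383.5, 477.6 and 639.1 CPM in Q92 and 329.8, 372.3 and 412.3 CPM in Q20, a rise of 1.35-fold (adjusted p = 0.00902). Mirlet7a-1, Mirlet7b, Mirlet7d and Mirlet7g rose 1.19- to 1.28-fold.

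Of the called let-7 precursors, 7 had fractional counts in all 16 livers, and Mir98 had whole counts. Of the 22 precursors called higher, 17 had fractional counts in at least 15 of the 16 livers, against 4 of the 23 called lower. The share over all tested precursors is not given here, so neither count can be set against it. How fractions arose is not given in the sources used here, and how reads were shared among near-identical copies is uncertain. With both copies summed before the fit, let-7a (Mirlet7a-1 and Mirlet7a-2) rose by 0.41 ± 0.11 SE (adjusted p = 0.0171) and let-7c (Mirlet7c-1 and Mirlet7c-2) by 0.38 ± 0.11 SE (adjusted p = 0.0275), on the log2 scale.

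**Figure D3:**
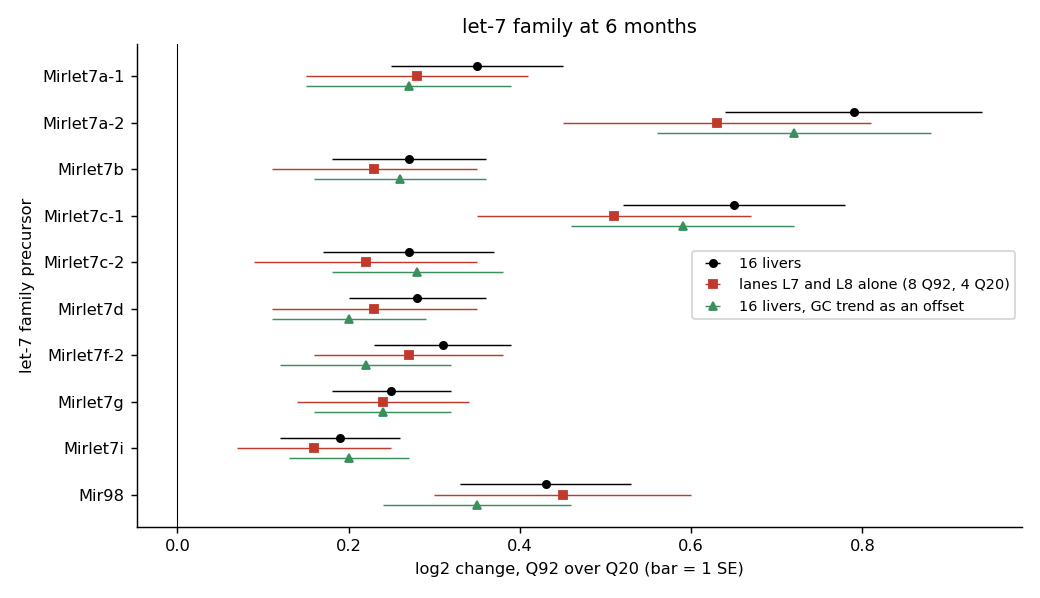
Log2 change of the 10 tested let-7 precursors, with 1 SE, in the 16 livers (black), in lanes L7 and L8 alone with 8 Q92 and 4 Q20 livers (red), and in the 16 livers with the GC trend of each library as an offset (green). All points lie above 0, with Mirlet7a-2 at 0.79, 0.63 and 0.72; in lanes L7 and L8 none of them passed the adjusted test.

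Mir103-1 and Mir107, which lie in pantothenate kinase genes and act on lipid and glucose metabolism in liver, rose 1.36-fold (adjusted p = 0.0224) and 1.20-fold (adjusted p = 0.0372). Mir103-2, which gives the same mature strand as Mir103-1, was at 0.13 ± 0.07 SE (adjusted p = 0.276), and with the Mir103 copies summed the change was 0.19 ± 0.07 SE and the call was lost (adjusted p = 0.0543). Of 6 tested members of the miR-30 family, 2 were called higher (8.46% of all tested precursors were): Mir30a at 1.14-fold and Mir30c-2 also at 1.14-fold, with adjusted p = 0.0239 and 0.0401 in the edgeR fit. The other tested members had changes between -0.03 and 0.23. Without normalization factors Mir30a, Mir30c-2 and Mir107 did not pass, with adjusted p = 0.182, 0.323 and 0.118.

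Mir22, in an exon of its host RNA Mir22hg, was, with Mir192, one of the 2 most abundant precursors. It had 186702, 214322 and 224144 CPM (lowest, median, highest) in Q92 and 174581, 190045 and 200411 CPM in Q20. It rose 1.17-fold (log2 0.23 ± 0.05 SE, adjusted p = 0.00338) and was the only one called of the 8 hepatocyte markers, whose median change was 0.15; 17.3% of all tested precursors were called, so this count is close to the background. Mir122, the main hepatocyte microRNA, was at 0.04 ± 0.06 SE (adjusted p = 0.773), and Mir192 at -0.03 ± 0.08 SE (adjusted p = 0.887). Their directions, unlike that of Mir22, changed with the scaling or the samples used.

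Mir148b, Mir186 and Mir365-1 also rose, by 1.23-, 1.23- and 1.40-fold. Mir16-2 rose 1.38-fold (adjusted p = 0.00293), whereas Mir16-1, which gives the same mature strand, was at -0.03 ± 0.09 SE (adjusted p = 0.905). With the Mir16 copies summed the change was 0.05 ± 0.08 SE (adjusted p = 0.776), so the summed copies did not pass the test. Gm25301 (chromosome 18) rose 1.17-fold.

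Among the precursors called lower, Mir351, of an X-linked cluster, ran from 179.5 through 242.5 to 261.3 CPM in Q92 and from 325.3 through 366.0 to 515.7 CPM in Q20. The groups did not overlap, and it fell 1.53-fold (log2 -0.62 ± 0.10 SE, adjusted p = 0.00147). The other 5 tested members of its cluster did not pass: Mir322 was at -0.04 ± 0.08 SE and Mir542 at 0.30 ± 0.15 SE.

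Mir125a had 1209, 1403 and 1631 CPM (lowest, median, highest) in Q92 and 1715, 2340 and 2751 CPM in Q20, again without overlap. It fell 1.48-fold (log2 -0.56 ± 0.10 SE, adjusted p = 0.00147), and its neighbour Mir99b on chromosome 17 fell 1.29-fold (adjusted p = 0.00776). Mir125b-2 fell 1.18-fold (adjusted p = 0.0225), and Mir125b-1 was at -0.34 ± 0.12 SE (adjusted p = 0.0542).

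Mir27a, known in liver for acting on lipid metabolism genes, ran from 253.6 through 370.9 to 457.2 CPM in Q92 and from 468.7 through 538.4 to 601.8 CPM in Q20. It fell 1.39-fold (log2 -0.48 ± 0.09 SE, adjusted p = 0.00293) with no overlap between groups. Mir27b, more abundant, fell 1.19-fold (adjusted p = 0.0129), and Mir24-2 fell 1.19-fold (adjusted p = 0.0356). In the 6 tested precursors of the miR-23, miR-27 and miR-24 clusters, 1 was called higher and 3 lower, against 8.46% and 8.85% of all tested, with a median of -0.25.

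Neighbours in a cluster did not always change together. On chromosome 13 Mir23b rose by 0.37 ± 0.12 SE while Mir27b beside it fell by 0.25 on the log2 scale. On chromosome 16 Mirlet7c-1 rose by 0.65 while Mir125b-2 fell by 0.24, and Mir99a of the same cluster was at -0.02 ± 0.08 SE. These were the 2 of 7 groups of neighbours (called precursors within 200 kb) with calls in both directions. Within chromosome 8, Mir23a was at 296 CPM ± 37.3 (SD, n = 8) in Q92 and 312 CPM ± 25.9 (SD, n = 8) in Q20, beside the lower Mir27a and Mir24-2.

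Mir339 fell 1.48-fold (adjusted p = 0.00147), Mir328 fell 1.40-fold (adjusted p = 0.00293) and Mir676 fell 1.35-fold (adjusted p = 0.00293). Mir210, the microRNA induced by low oxygen, fell 1.41-fold (adjusted p = 0.00818), and Mir139 fell 1.25-fold (adjusted p = 0.0120). Mir326 fell 1.66-fold and Mir331 1.78-fold. The larger fold of Gm26117 (2.68-fold lower) rests on few counts, with a lowest, median and highest level of 0.335, 1.90 and 7.995 CPM in Q92 and 3.21, 6.58 and 14.1 CPM in Q20; with the GC offset described below it was -0.49.

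Mir223, a myeloid microRNA, and Mir150, of lymphocytes, were lower as well, 1.41-fold (adjusted p = 0.00947) and 1.44-fold (adjusted p = 0.0372). They were 2 of 6 tested white blood cell markers, against 8.85% of all tested precursors called lower. The median change of the list was -0.21, and the summed level of the list was 3175 to 4479 CPM in Q92 and 3337 to 7260 CPM in Q20. In whole liver, fewer cells of a type and less RNA per cell cannot be told apart. The part of blood cells in these results was not tested.

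Of the other marker lists, none had a called member. Erythroid markers (3 tested) had a median change of -0.02, stellate cell and fibroblast markers (6 tested) 0.12, endothelial Mir126a 0.07, miR-200 family (5 tested) 0.11, pancreas (2 tested) -0.10 and neuron (4 tested) 0.06. The muscle list, with 1 tested member, had a summed level of 3.41 to 35.3 CPM in Q92 and 2.34 to 10.3 CPM in Q20. Among families, none was called of the miR-26, miR-29, miR-17-92, miR-181, miR-34, Hox cluster, miR-183 cluster, Dlk1-Dio3 and male-biased X-linked lists, whose medians lay between -0.17 and 0.55. Dlk1-Dio3 had the highest median (8 tested); its Mir379 was at 0.99 ± 0.34 SE (adjusted p = 0.0557). Its levels spread widely in Q92, with Mir379 at 5.01 CPM ± 5.11 (SD, n = 8) against 2.70 CPM ± 1.31 (SD, n = 8) in Q20. The summed level of the list was 145 to 1438 CPM in Q92 (median 389) and 219 to 455 CPM in Q20 (median 346), so the Q92 range enclosed that of Q20.

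The changes moved with the base composition of the precursors. GC content was known for 245 of the 260, and those called higher had a median of 45.9% while those called lower had 61.2%, against 50.6% over all. Of the 62 precursors with the lowest GC (28.4% to 44.7%), 9 were called higher and none lower, and of the 61 with the highest GC (57.1% to 91.6%), 2 were called higher and 15 lower. Across the 245 precursors Spearman's rho between log2 change and GC was -0.338 and Pearson's r -0.421, a description in which the points share libraries. In lanes L7 and L8 alone rho was -0.294 over the same precursors. It was -0.001 over 255 precursors at 2 months and 0.081 over 254 at 10 months.

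For each library, the slope of log2(CPM + 1), as a deviation from the mean of the 16 livers, on GC was 0.008 to 0.104 per 10 percentage points in Q20 and -0.155 to 0.015 in Q92. In lane L7 the slopes were -0.155 to -0.109 in 3 Q92 libraries and 0.057 to 0.089 in 2 Q20 libraries. In L8 they were -0.092 to 0.015 in 5 Q92 libraries and 0.008 to 0.038 in 2 Q20 libraries, and here the ranges overlapped. The part of base composition in the changes was not tested beyond an added fit, chosen after these data were seen, in which the GC trend of each library was removed as an offset. It called 22 of 245 precursors, 12 higher and 10 lower, and 18 of these were among the 45: Gm24111, Mir874, Mir351, Mir125a, Mirlet7a-2, Mirlet7c-1, Mir27a, Mir27b and Mir22 among them. Without the offset, a fit to the same 245 precursors called 39, 17 higher and 22 lower, so the smaller set alone also changed the calls. Of the 43 called precursors with a GC value, 25 did not pass the fit with the offset. They included 6 of the 8 called let-7 precursors (all but Mirlet7a-2 and Mirlet7c-1), and Mir103-1, Mir107, Mir30a, Mir30c-2, Mir23b and Mir24-2. Mir339 moved from -0.57 to -0.32 (adjusted p = 0.0681), Mir328 to -0.22 (adjusted p = 0.147), Mir99b to -0.11 (adjusted p = 0.467) and Mir210 to -0.18 (adjusted p = 0.374).

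**Figure D4:**
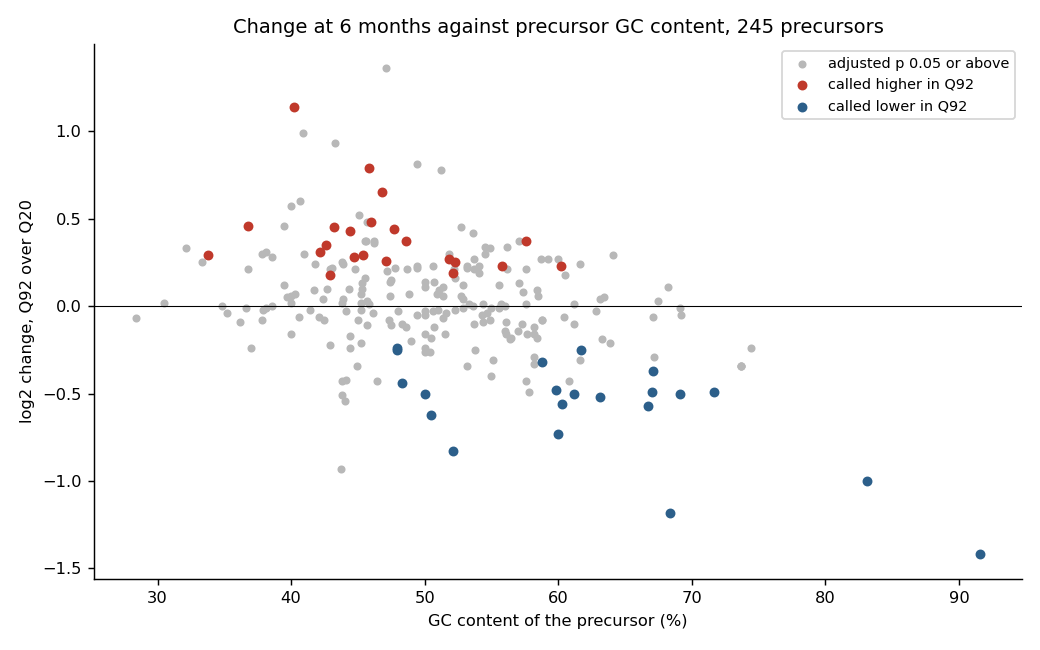
Log2 change, Q92 over Q20 at 6 months, against the GC content of the precursor in percent, for 245 precursors; red points were called higher, blue lower and grey neither. The precursors called lower lie mostly at high GC (median 61.2%) and those called higher at lower GC (median 45.9%).

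Sexes were compared because the 4 females and the 4 males of each genotype had been sampled separately. Females alone gave 17 calls and males alone 0 of 260 (46 at an unadjusted p under 0.05). Index type was a term in the female fit, so the female Q20 F4 added nothing to its Q92 estimates. That fit therefore rested on fewer Q20 livers than the male fit. The difference between the sexes itself was called for 0 of 260 precursors in the edgeR fit, with 27 at an unadjusted p under 0.05, and DESeq2 called 1. Mir351 was at -0.87 in females and -0.41 in males, and Gm24111 at 1.25 and 1.04. All Q92 females were in lane L8 and no Q20 female was, so among females genotype and lane cannot be told apart. Among males, lanes L7 and L8 each held both genotypes. Sex and lane were thus partly aligned as well.

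At 2 months no precursor was called of 275 in the edgeR fit of Q92 against Q20, with 22 at an unadjusted p under 0.05 and 1 called by DESeq2. At 10 months none was called of 277, with 15 (5.42%) at an unadjusted p under 0.05 and 2 called by DESeq2. Lane was a term in the fits of 2 and 10 months but not in the main fit of 6 months. With lane as a term 5 were called at 6 months, so the counts of the main fits are not of like models. Each age had its own 8 and 8 livers. The median log2 change of the 22 precursors higher at 6 months was 0.00 at 2 months and -0.11 at 10 months, and that of the 23 lower was 0.03 and -0.03.

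Gm24111 had 525 CPM ± 78.8 (SD, n = 8) in Q92 and 529 CPM ± 34.0 (SD, n = 8) in Q20 at 2 months, and 502 CPM ± 79.2 (SD, n = 8) and 533 CPM ± 92.8 (SD, n = 8) at 10 months. Mir874 had 31.7 CPM ± 8.25 (SD, n = 8) and 31.9 CPM ± 6.18 (SD, n = 8) at 2 months, and 31.0 CPM ± 4.56 (SD, n = 8) and 28.8 CPM ± 7.84 (SD, n = 8) at 10 months. At these ages the genotype means of both differed by less than 1 SD.

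The test of the difference in change called 33 of 289 precursors (11.4%) between 6 and 2 months, 16 in the direction of higher Q92 (5.54%) and 17 lower (5.88%), and 10 of 293 (3.41%) between 6 and 10 months, 4 higher (1.37%) and 6 lower (2.05%), with the same 6-month livers in both. Leaving out 1 library moved the first count to between 16 (without Q20 F3 of 2 months) and 48, and the second to between 8 and 18 (without Q92 F4 of 10 months). Of the 45 precursors called at 6 months, 24 were called in the first and 9 in the second. The 45 had been selected on these same 6-month livers, so these counts are not independent support. Gm24111 differed by 1.23 ± 0.16 SE (adjusted p = 1.04e-05) and 1.25 ± 0.18 SE (adjusted p = 4.53e-05). Mir874 differed by -1.11 ± 0.21 SE (adjusted p = 0.00240) and -1.42 ± 0.21 SE (adjusted p = 4.53e-05). The batch term in these tests was index type at 6 months and lane at 2 and 10 months. Age and the lanes and libraries of each age cannot be told apart.

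**Figure D5:**
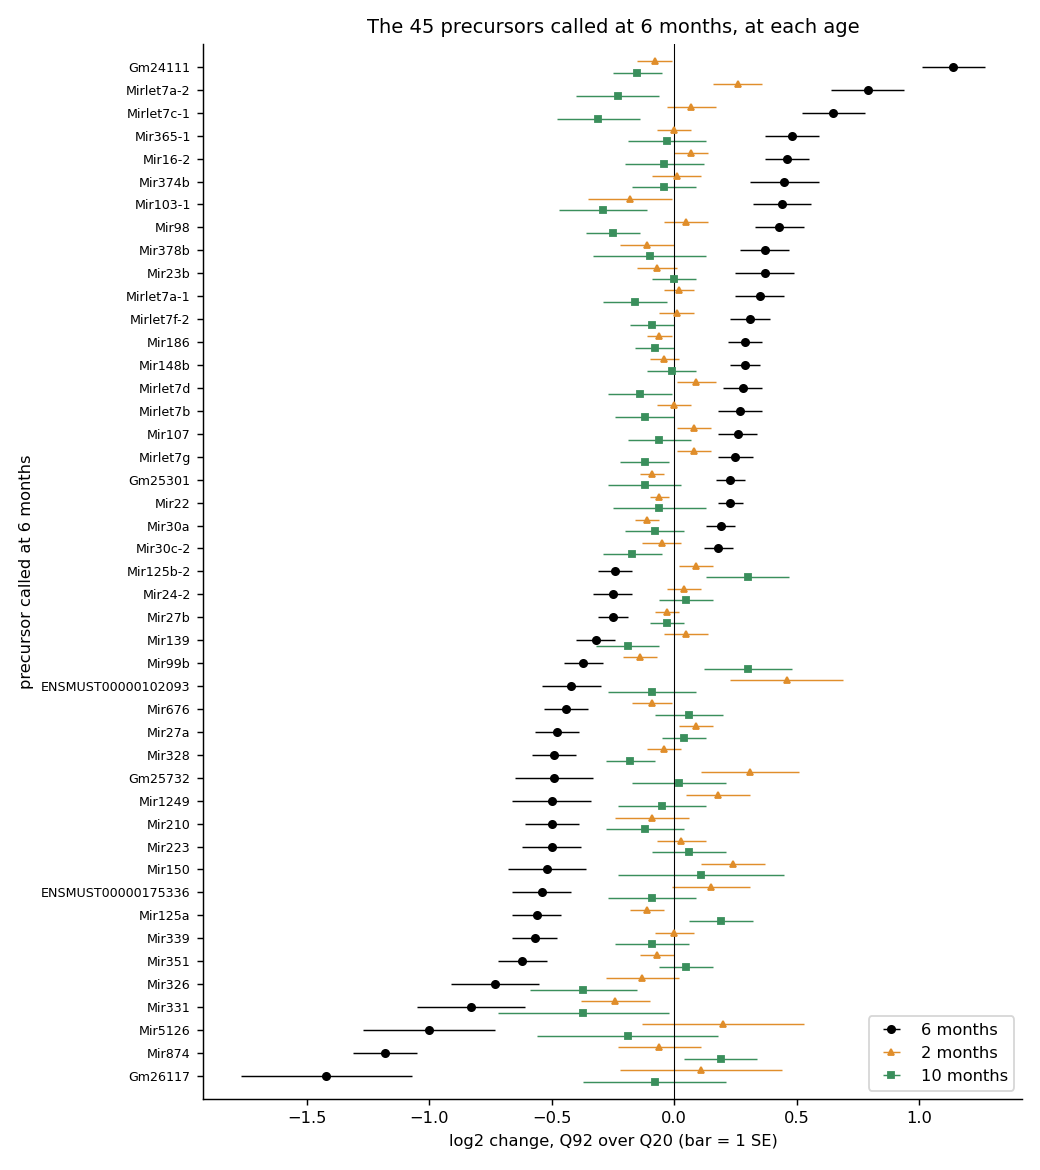
Log2 change, Q92 over Q20, with 1 SE, of the 45 precursors called at 6 months (black), at 2 months (orange) and at 10 months (green), ordered by the 6-month change. The medians of the 22 called higher are 0.33, 0.00 and -0.11 at 6, 2 and 10 months, and Gm24111 lies at 1.14, -0.08 and -0.15 at 6, 2 and 10 months.

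Other repeat lengths at 6 months are given for comparison. Gm24111 was at 911 CPM ± 122 (SD, n = 8) in Q80, 733 CPM ± 116 (SD, n = 8) in Q111, 847 CPM ± 166 (SD, n = 8) in Q140 and 1020 CPM ± 211 (SD, n = 8) in Q175, between the means of Q20 (578 CPM) and Q92 (1188 CPM). Mir874 was at 16.9 CPM ± 3.84 (SD, n = 8) in Q80, 17.3 CPM ± 7.83 (SD, n = 8) in Q111, 15.8 CPM ± 4.06 (SD, n = 8) in Q140 and 14.5 CPM ± 3.22 (SD, n = 8) in Q175. These means also lay between those of Q20 (21.99 CPM) and Q92 (9.21 CPM), and their differences were not tested here. Libraries of these other lines lay partly or wholly in other lanes, and some of Q80, Q140 and Q175 had the index type of Q20 F4. In these means line and library cannot be told apart. In the Q111 females of lane L8, given next, Mir874 lay above the Q20 mean and Gm24111 between the means of Q20 and Q92.

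A comparison within 1 lane name and 1 sex set the 4 Q92 females of L8 against 3 Q111 females of L8, with the same Q92 livers as above. It called 11 of 254 precursors (4.33%), 3 higher (1.18%) and 8 lower (3.15%). Gm24111 was at 1355 CPM ± 63.1 (SD, n = 4) in Q92 and 632 CPM ± 52.2 (SD, n = 3) in Q111, a difference of 1.13 ± 0.11 SE (adjusted p = 0.000984). Mir874 was at 8.59 CPM ± 1.05 (SD, n = 4) and 24.6 CPM ± 2.30 (SD, n = 3), a difference of -1.49 ± 0.18 SE (adjusted p = 0.00403). Mirlet7a-2 and Mir16-2 were higher and Mir125a lower, all at adjusted p = 0.00944. Leaving out 1 library moved the count to 2 (without Q111 F2 or F3), 3 (without Q92 F1), 7 (without Q92 F2, F3 or F4) or at most 10, and Spearman's rho between these changes and GC was -0.253 over 240 precursors.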

How the data were processed

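RNA of flash-frozen liver, from which a subfraction had been enriched, was sequenced as strand-specific 36-base single reads; the authors clipped adapters, aligned reads to mm10 with STAR and counted with HTSeq (versions not given in the sources used here; CASAVA 1.8.2 is in the submitters' processing notes). The deposited table holds estimated counts, many fractional, for 1626 precursor transcripts; 51.7% of values above 0 in these 16 libraries were whole. The second deposited table, of normalized values, was not used. Counts were rounded and tested with edgeR 4.0.16 in R 4.3.3 (TMM factors, quasi-likelihood F test, Benjamini-Hochberg), with DESeq2 1.42.0 as an alternative. The design had foreseen whole counts. SE was the absolute log2 change over the square root of F. The procedure was tested on simulated data. IDs were matched to GENCODE M21 (1228 of 1626); transcript GC came from its sequences. Within groups all 56 pairs of libraries differed beyond sampling noise (smallest chi-square per degree of freedom 33.3). Named precursors were the 10 called higher and 15 called lower with the smallest adjusted p, the members of smallest p in each list, those called in the side comparisons, and the 5 most abundant with Mir122; other precursors are named where they share a family, strand or cluster with these, chosen after their values were seen. Members and lists were chosen with earlier results of these data known. The study's own model had a batch covariate, which the labels do not define, so index types and lanes were read from the sample descriptions. The planned sum over copies joined Gm24111 with Mirlet7f-2, and this sum rose by 0.34 ± 0.09 SE on the log2 scale (edgeR, adjusted p = 0.0171). Because Gm24111 is annotated antisense to Mirlet7f-1, it is not read as a let-7f sum.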

Additional observations from a re-analysis of the deposited data

Results flagged for a closer look

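The change in Q92 against Q20 differed between ages for the following precursors, by the edgeR test of the difference itself, and the 5 with the smallest adjusted p of each comparison are given. Between 6 and 2 months Gm24111 differed by 1.23 (adjusted p = 1.04e-05), Mir874 by -1.11 (adjusted p = 0.00240), Mir1961 by -2.79, Mir339 by -0.57 and Gm27626 by -2.51 (each adjusted p = 0.00487), all on the log2 scale. Mir1961 and Gm27626 rest on few reads: at 6 months the Q92 livers held 0 to 5 counts of Mir1961 and 0 to 8 of Gm27626, and the Q20 livers 2 to 18 and 9 to 34. Neither had enough counts to be tested at 6 months alone. Between 6 and 10 months Gm24111 differed by 1.25 and Mir874 by -1.42 (each adjusted p = 4.53e-05), Mir125a by -0.80 (adjusted p = 0.00341), Mir351 by -0.71 (adjusted p = 0.00875) and Mir98 by 0.64 (adjusted p = 0.0109). The 2 sets share the 6-month livers. Their cause was not tested. In 50 groups of 8 values examined, no liver stood apart from its group. This covers those 50 groups alone and not the other precursors.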

How the results depend on the processing

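The 45 calls at 6 months numbered 31 to 49 when 1 library was left out, 33 without sex, 37 without normalization factors (11 higher and 26 lower, against 22 and 23), 37 with at least 100 counts, 49 of 1040 without a filter and 56 in DESeq2. They numbered 5 with lane as a term, 2 in lanes L7 and L8 alone, 17 in females and 0 in males. With the GC offset 22 of 245 were called, against 39 of the same 245 without it. Fewer livers entered the fits of L7 and L8 and of each sex. With lane as a term the contrast of Q92 with Q20 came from L7 and L8. For the other settings the cause was not tested. With the replicate number as a block there were 22 calls; the labels pair no animals, the correlation of same-numbered livers ran from -0.378 to 0.281, 4 of 8 pairs were over 0.1, and 4 of 8 livers correlated best with their own number. The total count difference ran from -1.127 to -0.83 M without 1 library. Calls for the sex difference were 20 without a filter, 1 in DESeq2 and 1 with the replicate block, and 0 to 0 without 1 library. At 2 months there were 19 without a filter, 1 in DESeq2, 1 with the block and 0 to 1 without 1 library (1 without Q92 M2), and at 10 months 17, 2 and 0 to 2 without 1 library (2 without Q92 F3). Age differences against 2 months numbered 16 to 48 without 1 library (at 2 months 16 without Q20 F3, 18 without Q20 M4, 19 without Q20 M2 or Q92 F4; at 6 months 17 without Q20 F1, 18 without Q20 F2, 19 without Q92 F1), and against 10 months 8 to 18 (18 without Q92 F4), 24 without a filter and 22 in DESeq2. Q92 against Q111 gave 36 without a filter, 25 in DESeq2, 0 with the replicate block and 2 to 10 without 1 library (2 without Q111 F2 or F3).

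None of the 45 called precursors changed direction under any alternative. These fits reused the livers from which the precursors had been called, so a kept direction is not independent support. Among abundant precursors that were not called, Mir192 turned to 0.03 with lane as a term and in L7 and L8, 0.08 in males and 0.01 without Q92 F2, and Mir122 to -0.05 without factors, -0.06 without a filter and -0.06 with the GC offset. Mir26a-2 turned to -0.08 without factors, -0.09 without a filter, -0.02 at 100 counts, and -0.03 with lane, in L7 and L8, with all groups, in males and among precursors with a GC value, and to between -0.03 and 0.02 in leave-one-out fits. Low counts limit Mir874, Mir326, Mir331, Mir5126 and Gm26117.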
